A study of Homo sapiens with 11 samples.

Results

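The genes described here are the LINC-named genes that were expressed in a set of 3 human cell lines. A gene was included when its deposited symbol began with LINC followed by digits and when it reached 1 FPKM (mapped fragments scaled to transcript length and to the library's total) in at least 2 of 8 RNA-seq libraries. Of 559 LINC-named genes among the 57815 gene entries listed, 118 met this rule and are called members below. Because expression chose them, their levels are given as a description. Of the other LINC-named genes, 48 were listed at 0 in every library, 381 were above 0 somewhere but never reached 1 FPKM, and 12 reached it in 1 library. Just inside the limit stood LINC00441, LINC00857, LINC00571 and LINC00968, whose second highest values were 1.0, 1.013, 1.018 and 1.054 FPKM. Just outside it stood LINC00887, LINC00910, LINC01088 and LINC00087, at 0.9914, 0.969, 0.9529 and 0.9502 FPKM. LINC00106 lies in the pseudoautosomal region, is listed on both sex chromosomes with the same values and was counted once.

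Small cell lung carcinoma, a tumour with neuroendocrine features, is represented by the established lines DMS153 and H209, and noncancerous lung fibroblasts by the line MRC5. All were grown untreated in culture. There were 3 RNA libraries from DMS153, 3 from MRC5 and 2 from H209, and 1 Hi-C library per line is represented by its list of chromatin domains. The labels do not say whether the libraries of a line came from separate cultures, so p-values measure only the spread between these libraries, and each tumour or cell type is represented by single lines.

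The symbol LINC stands for long intergenic non-protein-coding RNA and is a placeholder given to transcripts whose function was unknown when they were named. Long noncoding RNAs are transcribed and processed much like messenger RNA but are not known to be translated into a long protein. Many are made in few cell types, some act on genes next to them or carry microRNAs in their introns, and others act on RNA or protein elsewhere in the cell. Several LINC genes have since been renamed, some because a protein product was found.

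The label noncoding did not hold for every member. In RefSeq, matched through current gene names for 105 members and through the deposited symbol for 13, 105 members are long noncoding RNAs, 12 are now protein coding and 1 is a pseudogene (LINC00537, now DUX4L50). The 12 are LINC00085 (SPACA6), LINC00086 (SMIM10L2A), LINC00094 (BRD3OS), LINC00116 (MTLN), LINC00176 (C20orf204), LINC00341 (SYNE3), LINC00493 (SMIM26), LINC00617 (TUNAR), LINC00634 (SMIM45), LINC00846 (CFAP298-TCP10L), LINC00984 (INAFM2) and LINC00998 (SMIM30). For LINC00341 and LINC00846 the current name belongs to a longer gene whose deposited locus is next to the member.

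The start regions of 4 members are shown because these genes give the main expression patterns: LINC00261 (high in DMS153), LINC00404 (high in both carcinoma lines), LINC00152 (high in MRC5) and LINC00657 (even across the lines). Each runs 5′ to 3′ on the strand of the gene, from 250 bases before to 50 bases after the RefSeq start in GRCh38.p14. Capitals mark any of 5 short motifs searched on both strands: CAGCTG and CAGATG (E-boxes, bound by basic helix-loop-helix factors), TGACTCA (bound by AP-1 factors), TATAAA (the TATA box) and CCAAT (bound by NF-Y). The windows are LINC00261 on the minus strand at chr20:22578593-22578892, LINC00404 on the minus strand at chr13:112106580-112106879, LINC00152 (CYTOR) on the plus strand at chr2:87455177-87455476 and LINC00657 (NORAD) on the minus strand at chr20:36050911-36051210.
LINC00261: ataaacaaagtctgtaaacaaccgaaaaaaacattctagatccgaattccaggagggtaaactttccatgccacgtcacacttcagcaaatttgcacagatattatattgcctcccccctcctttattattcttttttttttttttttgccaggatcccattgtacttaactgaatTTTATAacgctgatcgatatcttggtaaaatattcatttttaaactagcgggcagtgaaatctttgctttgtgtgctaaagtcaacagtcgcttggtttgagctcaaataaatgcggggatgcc
LINC00404: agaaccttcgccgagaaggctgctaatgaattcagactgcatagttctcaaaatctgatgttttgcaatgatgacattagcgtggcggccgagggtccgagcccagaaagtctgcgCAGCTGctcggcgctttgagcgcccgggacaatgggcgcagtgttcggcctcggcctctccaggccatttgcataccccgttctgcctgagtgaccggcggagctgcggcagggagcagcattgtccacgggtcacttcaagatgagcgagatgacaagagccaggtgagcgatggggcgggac
LINC00152: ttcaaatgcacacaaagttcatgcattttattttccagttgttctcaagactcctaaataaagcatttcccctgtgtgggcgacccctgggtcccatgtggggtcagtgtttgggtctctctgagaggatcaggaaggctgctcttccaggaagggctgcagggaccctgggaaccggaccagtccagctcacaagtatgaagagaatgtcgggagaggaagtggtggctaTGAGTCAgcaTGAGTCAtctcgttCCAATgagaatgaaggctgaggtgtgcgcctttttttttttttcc
LINC00657: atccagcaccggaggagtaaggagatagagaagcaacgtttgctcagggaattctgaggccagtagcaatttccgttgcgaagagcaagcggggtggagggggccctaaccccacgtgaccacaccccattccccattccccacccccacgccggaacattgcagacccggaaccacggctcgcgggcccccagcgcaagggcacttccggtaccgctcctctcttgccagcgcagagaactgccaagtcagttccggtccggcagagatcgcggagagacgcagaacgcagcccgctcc
In these windows TTTATA is TATAAA and TGAGTCA is TGACTCA read on the opposite strand. LINC00261 held 1 match to TATAAA, LINC00404 held 1 to CAGCTG, LINC00152 held 2 to TGACTCA and 1 to CCAAT, and LINC00657 held none of the 5. Base composition also differed, with 37.0% G and C in LINC00261, 59.0% in LINC00404, 49.7% in LINC00152 and 63.0% in LINC00657. A match describes these letters and is not a measured binding site.

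Across the 90 members with a promoter in the RefSeq table, 18 (20.0%) held CAGCTG, 20 (22.2%) CAGATG, 9 (10.0%) TGACTCA, 11 (12.2%) TATAAA and 35 (38.9%) CCAAT. The shares among all 35116 promoters of the same length were 17.9%, 14.7%, 4.95%, 11.5% and 34.6%. The median G and C content was 59.3% in members and 58.7% in all promoters. For renamed members the window is that of the gene with the current name. Its start may lie away from the deposited locus, as for LINC00403 (SOX1-OT), LINC00341 (SYNE3), LINC00843 (TIMM23B-AGAP6) and LINC00846 (CFAP298-TCP10L). The member shares are therefore approximate. The promoter windows of LINC01001 on chromosome 11 and LINC01002 on chromosome 19 had 230 identical bases when aligned, 76.7% of the 300 bases of a window. The windows start at different points of a shared stretch, so this share understates how alike the stretch is. Both windows are in the counts above. Reads of these genes may have been divided between near copies.

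Cell identity was checked with marker genes before the members were compared. All 10 neuroendocrine markers averaged at least 1 FPKM in DMS153 and H209 and none did in MRC5. All 10 fibroblast markers did so in MRC5, 3 in DMS153 and 4 in H209, where their summed level stayed between 9.6 and 34.6 FPKM against 7760 to 8590 FPKM in MRC5. THY1 still averaged 26.77 FPKM in H209, and S100A4 differed little (2.343, 1.513 and 2.535 FPKM in DMS153, H209 and MRC5). The 6 epithelial markers averaged at least 1 FPKM in both carcinoma lines, as did KRT8 and KRT18 in MRC5 (24.56 and 74.43 FPKM). NKX2-1 of lung averaged 69.0 FPKM in DMS153 and 87.42 in H209 and was listed at 0 in MRC5. Markers of blood cells were under 1 FPKM except CD68 in MRC5, and CDH5, VWF and KDR of endothelium were under 1 FPKM in every line. The files hold no read counts. Relative depth, read from low values, was 0.953 to 1.66 times that of MRC5 replicate 1, and the deposited 95% interval of a member at 1 to 10 FPKM reached a median of 12.2% to 16.9% of the value to either side.

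Most members were weakly expressed and many reached a mean of 1 FPKM in only part of the lines. The median member of the lines DMS153, H209 and MRC5 stood at 2.57, 2.25 and 1.0 FPKM, against 7.15, 7.24 and 4.6 FPKM for all 19066 genes that passed the same expression limit. A mean of at least 10 FPKM was reached by 19 members in DMS153, 21 in H209 and 8 in MRC5. The number of members at 1 FPKM or more was 86 to 89 per DMS153 library, 72 and 80 in the H209 libraries and 57 to 61 per MRC5 library. In all 8 libraries, 35 members reached it.

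By the mean of each line, 38 members (32.2%) reached 1 FPKM in all lines, against 60.6% of all tested genes. In exactly 1 line, 48 members (40.7%) did so, against 19.4%. These were 24 in DMS153 alone (20.3% of members, 8.63% of all tested genes), 9 in H209 alone (7.63% and 5.56%) and 15 in MRC5 alone (12.7% and 5.17%). Both carcinoma lines but not MRC5 reached it for 24 members (20.3% and 14.6%). LINC00152, LINC00623 and LINC01021 were shared by DMS153 and MRC5, LINC00106, LINC00883 and LINC00960 by H209 and MRC5, and LINC00571 and LINC00857 reached a mean of 1 FPKM in no line. With a limit of 0.5 FPKM or of 2 FPKM, 31 members were above it in exactly 1 line. The share of all tested genes at these limits was not computed. Some single-line members lay just under 1 FPKM elsewhere, such as LINC00634 and LINC00478 at means of 0.9541 and 0.9576 FPKM in H209. How far the lower levels of members account for these shares was not tested.

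**Figure D1:**
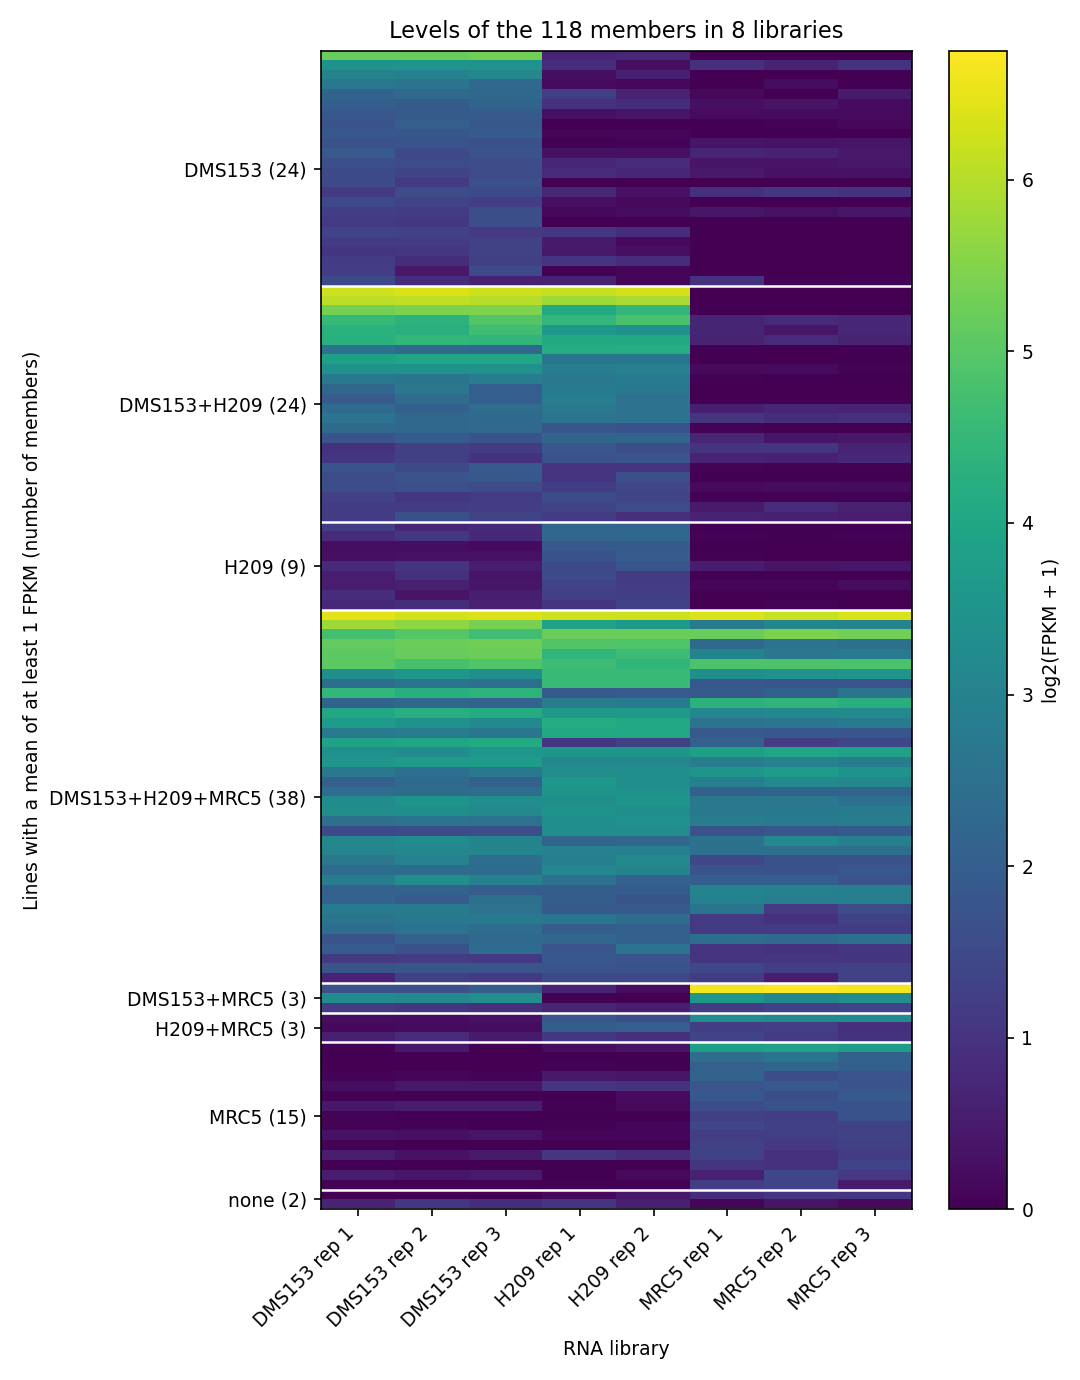
Heat map of all 118 members (rows, grouped by the lines in which their mean reached 1 FPKM and ordered by level) in the 8 libraries (columns), coloured by log2(FPKM + 1). The brightest rows outside the group shared by all lines are LINC00403 and LINC00404 in the carcinoma lines and LINC00152 in MRC5.

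**Figure D2:**
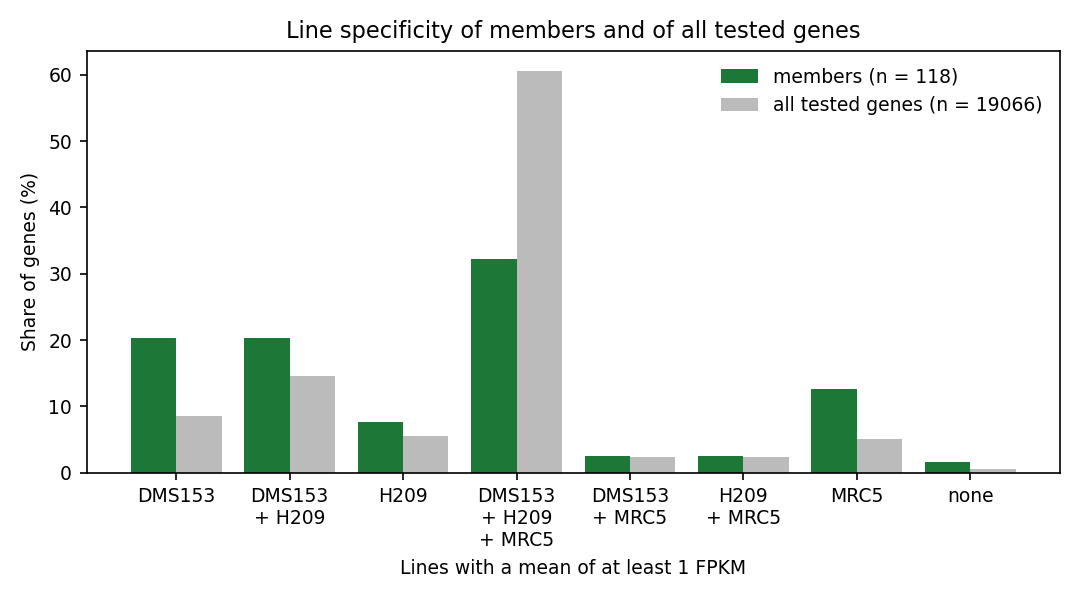
Share in percent of the 118 members (green) and of all 19066 tested genes (grey), by the set of lines whose mean reached 1 FPKM. Members reached it in all lines less often (32.2% against 60.6%) and in DMS153 or MRC5 alone more often; the bars carry no test because expression chose the members.

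Differences between lines were tested with limma on log2(FPKM + 1), with p-values adjusted over all tested genes by the Benjamini-Hochberg method. A call required an adjusted p below 0.05 together with a log2 fold change of 1 or more in size. Against MRC5, 50 members (42.4%) were higher in DMS153 and 14 (11.9%) lower, where 34.0% and 16.4% of all tested genes were. In H209, 41 members (34.7%) were higher and 16 (13.6%) lower, against 33.0% and 14.9% of all genes. Between the carcinoma lines, 22 members (18.6%) were higher in DMS153 and 13 (11.0%) lower, against 13.8% and 13.4%. The H209 shares thus lay near the background, as did the members called in either direction, which numbered 64 for DMS153 against MRC5 (54.2%, background 50.4%), 57 for H209 against MRC5 (48.3%, background 47.9%) and 35 between the carcinoma lines (29.7%, background 27.1%). The libraries of the compared lines did not overlap for 109, 105 and 93 members (92.4%, 89.0% and 78.8%), against 87.3%, 88.1% and 82.3% of all genes. The median log2 fold change of members was 0.77, 0.46 and 0.07 in the order of these comparisons, and that of all tested genes was 0.44, 0.46 and -0.04.

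The split into higher and lower members depended on scaling. With quantile normalization, which sets the median gene to -0.03 and 0.03, 27 members were higher and 28 lower in DMS153 than in MRC5, and 23 were higher and 25 lower in H209. With scaling to an equal sum in every library (TPM), which moves the median gene between the carcinoma lines from -0.04 to -0.60, 20 members were higher and 29 lower in DMS153 than in H209. When small RNA and mitochondrial genes were left out of that sum, the median gene between these lines was at 0.01. The shares of all tested genes called under these settings were not computed. Whether members moved more than other genes is therefore not known.

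Both comparisons with MRC5 use the same MRC5 libraries, so their values are given side by side only. No member was called in opposite directions in them. Calls of higher in both carcinoma lines with no difference between the lines were made for 20 members (16.9%, against 17.0% of all tested genes). Calls of higher in DMS153 than in each of the others, with H209 and MRC5 not different by the call, were made for 17 (14.4%, against 7.6%). The same pattern for H209 held for 9 (7.63%, against 5.76%), and 11 were lower in both carcinoma lines with no difference between these (9.32%, against 9.27%). No comparison gave a call for 30 members (25.4%, against 32.1%).

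**Figure D3:**
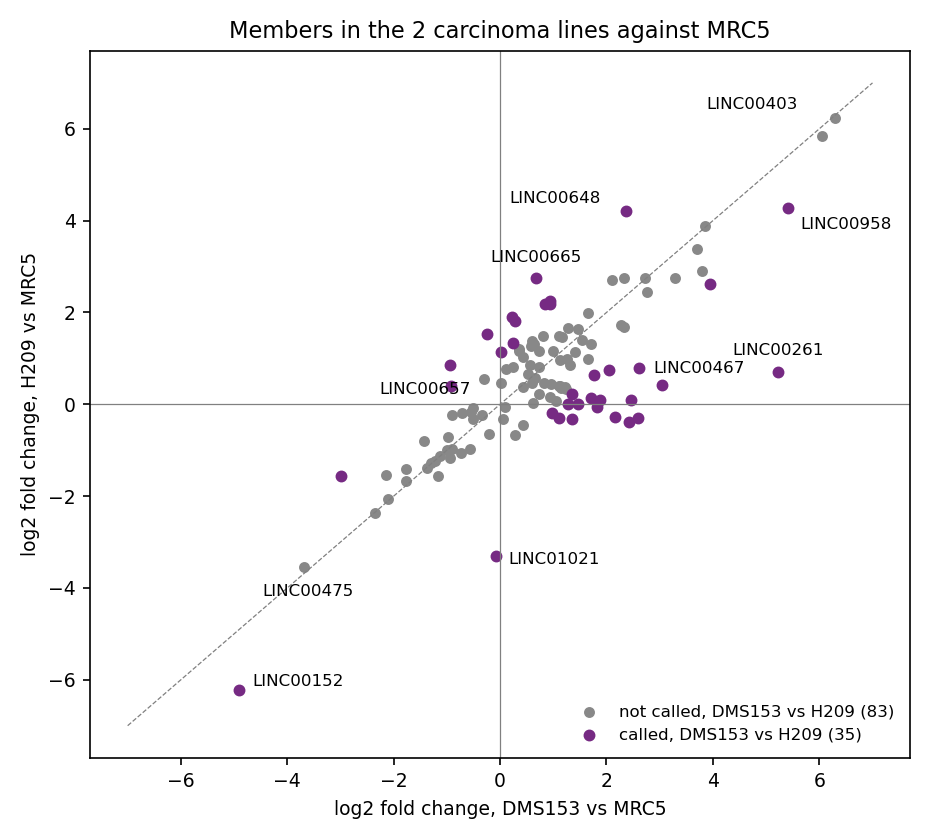
log2 fold change of each of the 118 members in DMS153 (horizontal) and H209 (vertical) against the same MRC5 libraries, on the log2(FPKM + 1) scale; purple points are the 35 members called between DMS153 and H209. No point is called in opposite directions, and LINC00261 and LINC01021 lie farthest from the dashed line of equal change; fitted values of the 10 members listed at 0 in every MRC5 library depend on the added 1.

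After LINC00657, the members with the highest means in DMS153 and H209 were a pair near SOX1, which encodes a transcription factor of neural progenitors. LINC00403 (ENSG00000224243.1, chr13:112761433-112762329 in hg19, now part of SOX1-OT) stood at 75.76, 83.29 and 74.69 FPKM in the DMS153 libraries and 70.64 and 79.06 FPKM in those of H209, and was listed at 0 in all 3 of MRC5. LINC00404 (chr13:112760409-112761196), 0.236 kb away, stood at 66.64, 67.39 and 63.66 FPKM, 53.81 and 58.61 FPKM, and 0. Both members were thus high in every carcinoma library and without signal in every fibroblast library (limma adjusted p = 5.5e-12 and 3.24e-11 for LINC00403 in DMS153 and H209, 3.53e-12 and 2.89e-11 for LINC00404). SOX1, 35.4 kb from LINC00403, was also high in both carcinoma lines, at 32.07, 35.23 and 30.72 FPKM in DMS153, 43.84 and 42.94 in H209 and 0.001403, 0 and 0.006151 in MRC5. Its mean was higher in H209 than in DMS153, unlike those of the members, with no call between these lines for any of the 3 genes. The unnamed transcript RP11-450H6.3, 21.6 kb from LINC00403, averaged 1.725 FPKM in DMS153 and 1.388 in H209 and was listed at 0 in MRC5. All 4 loci lay inside 1 chromatin domain in each of the 3 lines, MRC5 included.

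LINC00958 (chr11:12984057-13011095) was also high in both carcinoma lines. Its values were 39.89, 41.8 and 42.86 FPKM in DMS153 and 16.19 and 20.88 in H209, and no MRC5 library passed 2.837e-05 FPKM. The log2 fold change against MRC5 was 5.41 ± 0.09 (SE) in DMS153 and 4.28 ± 0.10 in H209 (limma adjusted p = 6.08e-11 and 7.91e-10). DMS153 exceeded H209 by 1.13 ± 0.10 (limma adjusted p = 1.08e-05), a difference that fell under the minimum fold with TPM scaling (0.51) and without H209 replicate 1 (0.96). Of its neighbours, RASSF10, which encodes a Ras-association domain protein, was called the opposite way between the carcinoma lines, at 3.282 FPKM in DMS153 and 8.754 in H209 with 0 in MRC5. TEAD1, a transcription factor of the Hippo pathway on the other side, stood at 56.13, 55.38 and 48.98 FPKM and was not called.

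LINC00263 (chr10:102133372-102143125, now OLMALINC) lies 8.78 kb from SCD, the gene of stearoyl-CoA desaturase, which makes monounsaturated fatty acids. The member stood at 21.97, 19.67 and 29.81 FPKM in DMS153, 21.28 and 27.01 in H209 and 0.6229, 0.7615 and 0.6601 in MRC5. Every carcinoma library was above every fibroblast library, and DMS153 and H209 overlapped. The log2 fold change was 3.86 ± 0.15 in DMS153 and 3.89 ± 0.17 in H209 (limma adjusted p = 9.84e-09 and 2.64e-08). SCD had the same shape, at 124.4, 147.2 and 16.33 FPKM in DMS153, H209 and MRC5 (2.84 ± 0.13 and 3.10 ± 0.14 against MRC5). BLOC1S2, which encodes a subunit of a lysosome biogenesis complex 86.9 kb away in the same domain, was lower in DMS153 instead (-1.42 ± 0.07, limma adjusted p = 3.67e-08).

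Further members were shared by both carcinoma lines. LINC01018 stood at 14.34 ± 0.97 FPKM (SD, n = 3) in DMS153 and 5.139 ± 0.020 (SD, n = 2) in H209 and was listed at 0 in MRC5, and UBE2QL1, a ubiquitin-conjugating enzyme gene 87.2 kb away, stood at 11.85, 16.4 and 0.0002127 FPKM. LINC00511 averaged 20.6, 10.6 and 0.551 FPKM, while SLC39A11, a zinc transporter gene 5.48 kb away, went the other way at 2.246, 6.084 and 8.68 FPKM. LINC01002 averaged 20.17, 15.95 and 0.6235 FPKM and its near copy LINC01001 36.3, 28.92 and 4.53 FPKM. LINC00617, now TUNAR and known from neural differentiation, averaged 5.714, 5.727 and 0.007956 FPKM and had no tested neighbour. LINC00648 was the member of this set with the strongest tilt to H209. It averaged 4.148 ± 0.640 FPKM (SD, n = 3) in DMS153, 17.34 ± 0.12 (SD, n = 2) in H209 and 1.144e-05 in MRC5, and DMS153 was lower than H209 by a log2 fold change of -1.84 ± 0.11 (limma adjusted p = 5.37e-07).

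Among members high in DMS153, LINC00261 had the largest difference between the carcinoma lines. LINC00261 (ENSG00000259974.2, chr20:22528309-22559280) is a long noncoding RNA known from endoderm differentiation and lies 2.36 kb from FOXA2, the gene of a forkhead transcription factor of endoderm and airway epithelium. It stood at 35.16, 35.6 and 38.84 FPKM in DMS153, at 0.5905 and 0.6802 in H209, and was listed at 0 in all MRC5 libraries. Only DMS153 was above 1 FPKM, and it exceeded H209 by a log2 fold change of 4.52 ± 0.08 (limma adjusted p = 4.45e-10). FOXA2 stood at 49.41, 54.32 and 54.34 FPKM in DMS153, at 20.28 and 21.22 in H209 and at 0, 0 and 0.001396 in MRC5. H209 therefore kept FOXA2 at a mean of 20.75 FPKM with the member at 0.6353. The difference of FOXA2 between the carcinoma lines was 1.30 ± 0.08 (limma adjusted p = 5.59e-07) and fell to 0.68, under the minimum fold, with TPM scaling. Both loci lay in 1 domain in DMS153 and in H209, and in MRC5 they were not both inside a domain.

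LINC00886 (chr3:156465135-156534851) stood at 9.892, 10.23 and 9.796 FPKM in DMS153 and stayed under 1 FPKM in every H209 and MRC5 library (DMS153 against H209, 2.89 ± 0.18, limma adjusted p = 8.02e-07). Its neighbour TIPARP, which encodes a mono-ADP-ribosyltransferase, differed little between DMS153 and MRC5 (21.3 and 22.55 FPKM) and stood at 10.93 FPKM in H209, with no call. LINC01014 lies inside the locus of KCNMB2, a potassium channel subunit gene. The member averaged 7.205 FPKM in DMS153 and 0.3435 in H209, whereas KCNMB2 averaged 17.23 and 17.25 FPKM, so member and host differed in pattern between these lines although they overlap. LINC00359 and OXGR1, a receptor gene 1.55 kb away, fell together from DMS153 to H209, at 2.654 and 0.07424 FPKM for the member and 12.8 and 2.001 FPKM for OXGR1.

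On the X chromosome, LINC00893 (chrX:148609130-148622504) and LINC00894 (chrX:149106846-149392815) were both high in DMS153. LINC00893 stood at 13.91, 14.88 and 16.36 FPKM in DMS153, 1.134 and 1.456 in H209 and 3.173, 1.322 and 1.753 in MRC5. LINC00894 averaged 19.49, 2.80 and 3.691 FPKM. No DMS153 library overlapped those of the other lines for either member, and DMS153 exceeded H209 by 2.81 ± 0.21 for LINC00893 and 2.43 ± 0.18 for LINC00894 (limma adjusted p = 3.23e-06 and 2.89e-06). IDS, the gene of the lysosomal enzyme iduronate 2-sulfatase, overlaps LINC00893 and averaged 157.4, 28.18 and 60.55 FPKM. Whether reads were assigned by strand is not given in the sources used here, so overlapping genes such as these can share reads. LINC00467 rose in DMS153 to 54.28, 47.28 and 40.43 FPKM against 13.72 and 11.31 in H209 and 5.989, 7.368 and 7.236 in MRC5, with no overlap between lines, while its nearest named neighbour TRAF5, a signalling adaptor gene, was not called.

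Members higher in H209 than in DMS153 included LINC00665, LINC00667 with LINC00526, LINC00938 and LINC00341. LINC00665 (chr19:36803969-36822620) stood at 4.433, 5.021 and 4.518 FPKM in DMS153, 22.43 and 22.84 in H209 and 2.649, 2.515 and 2.427 in MRC5. Its H209 level was separate from both other lines (DMS153 against H209, -2.06 ± 0.08, limma adjusted p = 5.3e-08). ZFP14 and ZFP82, genes of zinc finger proteins 4.54 and 51.4 kb away, averaged 0.003351 and 0.001812 FPKM in DMS153, 4.322 and 6.659 in H209 and 1.489 and 1.532 in MRC5. In DMS153 these neighbours were thus near 0 while the member kept 4.657 FPKM.

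LINC00667 and LINC00526 overlap on chromosome 18 and were both highest in H209, at 22.7 against 9.861 FPKM in DMS153 for LINC00667 and 9.026 against 1.93 for LINC00526. The difference of LINC00667 was -1.13 ± 0.09 (limma adjusted p = 4.91e-06) and -0.98, under the minimum fold, with median ratio scaling. LINC00938 stood at 15.26 and 15.45 FPKM in H209 against 5.286 to 6.223 in DMS153, although ARID2, a chromatin remodelling gene 1.89 kb away, averaged 12.9 and 12.94 FPKM in DMS153 and H209. Among the 9 members at 1 FPKM in H209 alone, LINC00930 averaged 3.723 FPKM, LINC00176 3.714, LINC00928 2.748, LINC00846 2.577 and LINC00537 2.096. LINC00930 lies 99.1 kb from ST8SIA2, the gene of a polysialyltransferase of neural cells, which averaged 6.37 FPKM in H209 and 0.1989 in DMS153. LINC00176 lies 7.76 kb from SOX18, known as a transcription factor of endothelium, which averaged 1.423 FPKM in H209, 0.01031 in DMS153 and 0.1141 in MRC5; the endothelial markers CDH5, VWF and KDR were under 1 FPKM in H209.

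The highest member of the fibroblasts was LINC00152 (ENSG00000222041.6, chr2:87754887-87906324), now CYTOR and named as a regulator of the cytoskeleton. It stood at 97.55, 106.8 and 98.81 FPKM in MRC5, at 2.205, 2.131 and 2.992 in DMS153 and at 0.5985 and 0.1694 in H209. The 3 lines did not overlap, with log2 fold changes against MRC5 of -4.90 ± 0.13 in DMS153 and -6.22 ± 0.15 in H209 (limma adjusted p = 1.02e-09 and 7.27e-10). MIR4435-1HG, listed elsewhere on chromosome 2 and known as a near copy of this gene, stood at a like level in MRC5, at 95.29, 108.8 and 99.2 FPKM. It was above LINC00152 in the other lines, at 4.376 ± 0.549 FPKM in DMS153 (SD, n = 3) and 1.128 ± 0.147 in H209 (SD, n = 2) against means of 2.442 and 0.384 for LINC00152. How reads that fit both genes were divided is not given in the sources used here, so the level of either gene alone is uncertain.

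LINC00475 (chr9:94903580-94922396) followed at 13.42, 13.85 and 12.71 FPKM in MRC5, against at most 0.3467 in any carcinoma library. Its log2 fold change was -3.68 ± 0.12 in DMS153 and -3.55 ± 0.13 in H209 (limma adjusted p = 2.7e-09 and 9.94e-09). IARS, the gene of isoleucyl-tRNA synthetase 50.1 kb away, was lower in the carcinoma lines too, at 55.75 and 60.29 FPKM against 171.4. LINC00973, at 4.28, 5.124 and 3.28 FPKM in MRC5 and listed at 0 in H209, lies 79.4 kb from DCBLD2, a gene of a transmembrane receptor, which averaged 78.66 FPKM in MRC5, 17.38 in DMS153 and 4.274 in H209. LINC00632 averaged 1.66 FPKM in MRC5, and the CDR1 entry 10.6 kb away 1.174 FPKM, with no carcinoma library of either gene above 0.04213. LINC00883 (DUBR) fell from 8.554 FPKM in MRC5 to 2.218 in H209 and 0.2062 in DMS153, and every step between lines was called.

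LINC00839 and LINC00984 were lower in both carcinoma lines beside neighbours that were higher. LINC00839 stood at 3.23, 3.622 and 3.147 FPKM in MRC5 and at most 0.05401 in a carcinoma library, while ZNF37BP, a zinc finger pseudogene 18.2 kb away, averaged 19.99 and 20.87 FPKM in DMS153 and H209 against 4.438. LINC00984, now the protein-coding gene INAFM2, stood at 19.27, 20.56 and 17.99 FPKM in MRC5, 3.345 to 3.808 in DMS153 and 6.077 and 5.88 in H209. C15orf52, 4.74 kb from it, went the same way (30.86 FPKM in MRC5, 1.264 and 1.571 in the carcinoma lines). PAK6, a kinase gene 47.7 kb away, went the opposite way, at 4.402 and 14.78 FPKM in DMS153 and H209 against 0.03295, as did DISP2, a gene of a Hedgehog release protein (2.404 and 5.554 against 0.2445).

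LINC01021 (chr5:27472399-27496508), now PURPL and known as a p53-regulated RNA, was the only member called lower in H209 than in both other lines with no call between these. It stood at 8.721, 7.856 and 9.076 FPKM in DMS153, 0.03021 and 0.01289 in H209 and 10.81, 7.726 and 8.874 in MRC5. DMS153 and MRC5 overlapped and H209 lay far below both (against MRC5 -3.30 ± 0.13, limma adjusted p = 1.36e-08; DMS153 against H209 3.22 ± 0.13, limma adjusted p = 5.68e-08). No tested gene lay within 100 kb of it. LINC00960 averaged 3.003 FPKM in H209, 1.226 in MRC5 and 0.1453 in DMS153, where it was lowest.

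The most even member was LINC00657 (ENSG00000260032.1, chr20:34633544-34638882), now NORAD, which binds PUMILIO proteins. It stood at 87.76, 79.3 and 82.57 FPKM in DMS153, 76.46 and 73.85 in H209 and 81.57, 71.14 and 81.41 in MRC5. The MRC5 libraries overlapped those of both carcinoma lines, while every DMS153 library was above both H209 libraries. The line means spanned 0.145 on the log2(FPKM + 1) scale. It was the highest member in DMS153 and H209 and the second in MRC5, after LINC00152. LINC00998, LINC00493, LINC00662 and LINC00641 were the next most even members above 5 FPKM in every line, with ranges of 0.379, 0.507, 0.501 and 0.647.

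LINC00998, LINC00493 and LINC00116 encode small proteins. LINC00998 (SMIM30) averaged 29.18, 22.2 and 28.1 FPKM in DMS153, H209 and MRC5, LINC00493 (SMIM26) 27.06, 36.71 and 38.86 FPKM, and LINC00116 (MTLN, the mitochondrial peptide mitoregulin) 5.251, 8.993 and 10.75 FPKM, with no call in any comparison. LINC00961 and LINC00948, also reported to encode small proteins, stayed under 0.3 FPKM in every library. Of the 12 members that RefSeq now lists as protein coding, 7 averaged at least 1 FPKM in all lines. Against MRC5, 3 were higher and 1 lower in DMS153, and 3 were higher and 1 lower in H209. These counts are not above the background, since 34.0% and 16.4% of all tested genes were called higher and lower in DMS153 and 33.0% and 14.9% in H209.

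LINC00478 (chr21:17442842-17999716, now MIR99AHG) carries the loci of 3 microRNAs, short RNAs that guide repression of messenger RNA. The member itself was low and not called, at 0.4251, 0.2558 and 0.408 FPKM in DMS153, 1.097 and 0.8182 in H209 and 1.536, 0.9449 and 1.26 in MRC5. The mature sequences of its microRNAs, from RefSeq with the seed (bases 2 to 8) in capitals, are given because these loci and their host differed in pattern.
hsa-miR-99a-5p: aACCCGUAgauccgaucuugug
hsa-let-7c-5p: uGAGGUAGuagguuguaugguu
hsa-miR-125b-5p: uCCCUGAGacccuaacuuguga
The 3 seeds differ. MIR99A was listed at 3493, 3654 and 3522 FPKM in DMS153, MIRLET7C at 457.0, 320.9 and 478.2 and MIR125B2 at 41.27, 50.54 and 26.65, and all 3 were listed at 0 in every H209 and MRC5 library. The loci thus had values above 0 in DMS153 alone, the line where the host was lowest, and a value listed as 0 does not show absence in these files. The pattern was not particular to this host. MIRLET7A3 and MIRLET7B near LINC00899 averaged 3062 and 13920 FPKM in DMS153 and were listed at 0 in H209 and MRC5, as were MIR125A, MIRLET7E and MIR99B near LINC00085 (533.0, 627.1 and 855.5 FPKM in DMS153). The microRNA host entry MIR17HG averaged 2157, 1.736 and 0.4299 FPKM in DMS153, H209 and MRC5. FPKM divides by length, so values of loci this short are not comparable with that of the host. Whether the RNA of the lines was selected in the same way is not stated in the labels, and its part in this difference was not tested. Other member loci that hold a microRNA were LINC00669, LINC00925, LINC00969 and LINC01057; their microRNAs were listed at 0 in every library except MIR378G in LINC01057, at 3.579 FPKM in 1 DMS153 library. LINC00925 (MIR9-3HG) averaged 4.099, 5.727 and 0.0001408 FPKM while MIR9-3 inside it was listed at 0 throughout.

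**Figure D4:**
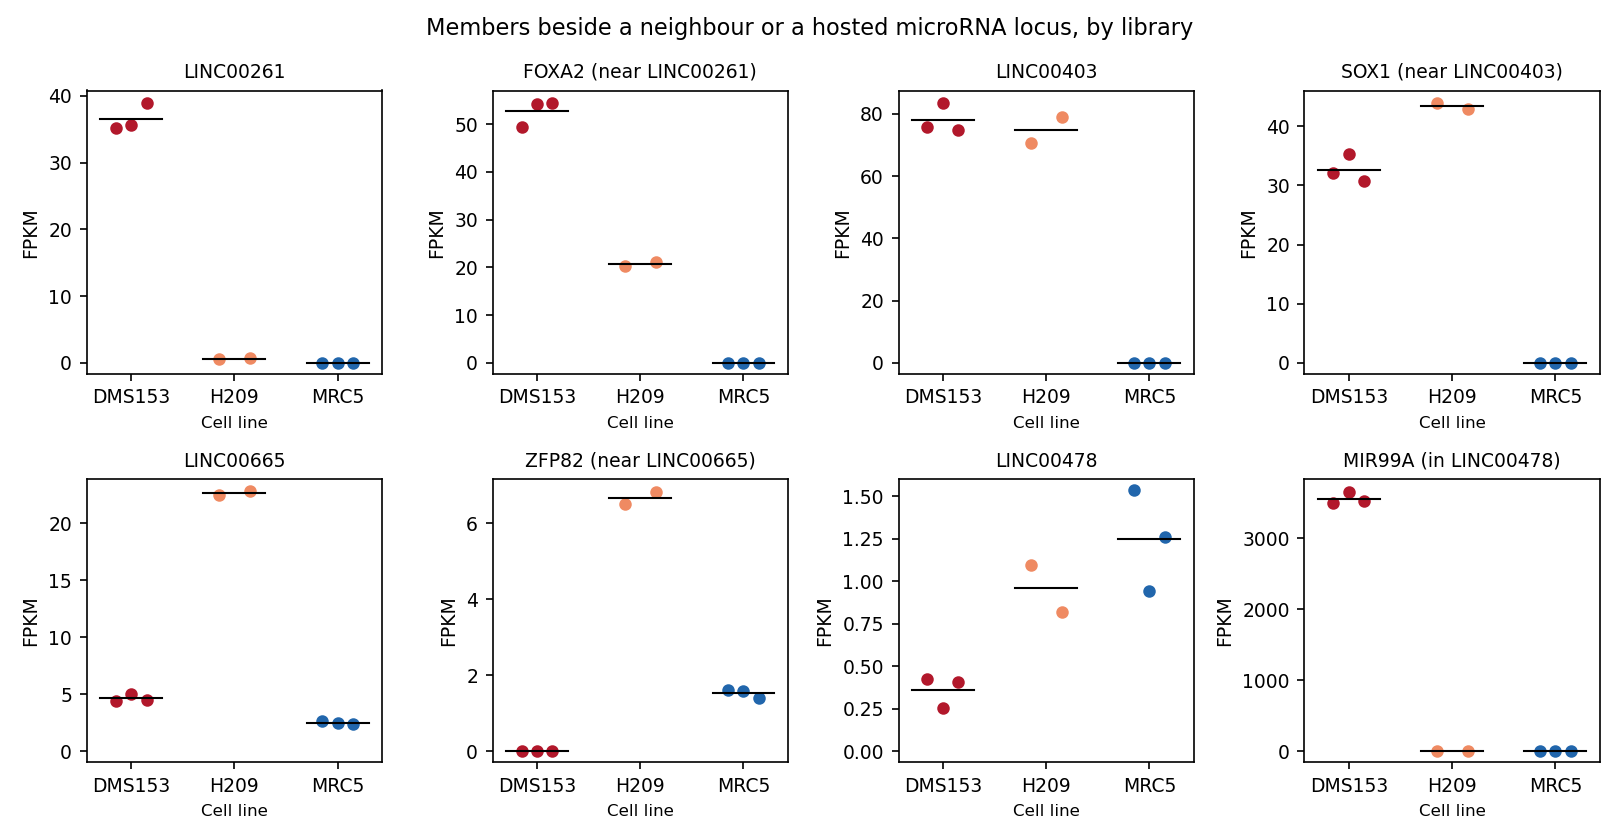
FPKM by cell line for 4 members, each beside a neighbour within 100 kb or a microRNA locus inside it; points are libraries (DMS153 n = 3, H209 n = 2, MRC5 n = 3), bars are means and each panel has its own linear axis. LINC00403 and SOX1 are both high in the carcinoma lines and at or near 0 in MRC5. LINC00261 is low in H209 where FOXA2 is not, and LINC00665 is above 4 FPKM in DMS153 where ZFP82 is near 0. MIR99A is high where its host LINC00478 is lowest.

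LINC00441 (RB1-DT) lies 0.089 kb from RB1, the retinoblastoma tumour suppressor gene, and sat at the edge of the rule. It stood at 1.837, 0.8049 and 0.5417 FPKM in DMS153, 0.591 and 0.09362 in H209 and 1.0, 0.02847 and 0.05038 in MRC5, so its spread within MRC5 was 35.1-fold and no comparison was called. RB1 itself averaged 4.487, 23.51 and 12.38 FPKM. LINC01035 in DMS153 (0.374 to 1.834 FPKM) and LINC00674 (1.19 to 5.134) and LINC01081 (0.3989 to 1.561) in MRC5 also varied widely between libraries of a line (4.9-fold, 4.32-fold and 3.91-fold).

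Within 100 kb of the members, 290 other tested genes were found, a median of 2 per member against 4 for other tested genes. No tested neighbour was found for 15 members (12.7%, against 5.4%). The 303 pairs of a member and a neighbour included 43 with overlapping loci and 4 made of members only. Where both genes of a pair were called, they went the same way in 77 of 92 pairs (83.7%) for DMS153 against MRC5, in 71 of 81 (87.7%) for H209 against MRC5 and in 26 of 28 (92.9%) for DMS153 against H209. Pairs around other tested genes did so in 72.2%, 76.2% and 87.0%. Without overlapping loci the member pairs gave 81.3%, 85.9% and 90.0%, and other pairs 69.7%, 74.0% and 85.9%. Pairs that share a member are not independent, and these shares were not tested.

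**Figure D5:**
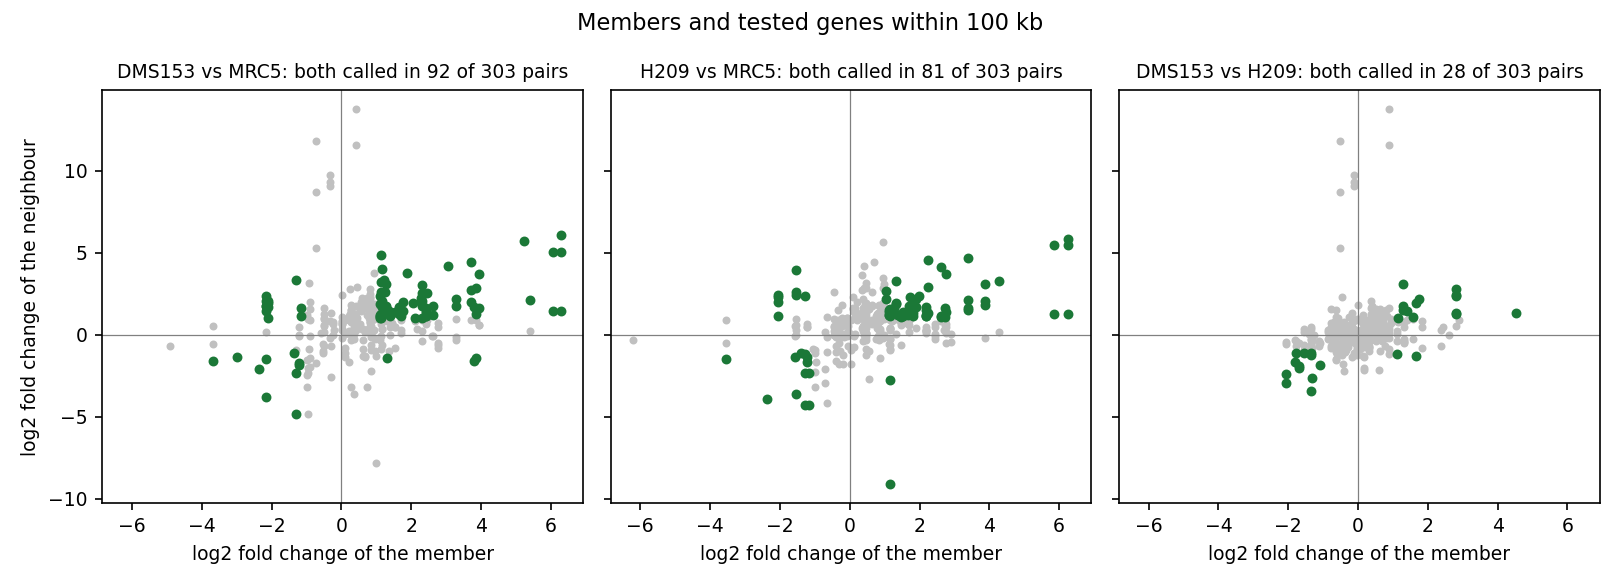
log2 fold change of each member (horizontal) and of a tested gene within 100 kb (vertical) for the 303 pairs in 3 comparisons; green points are pairs with both genes called (92, 81 and 28). Most green points lie in the quadrants of equal direction (77, 71 and 26); neighbours above 8 are microRNA loci.

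Neighbours of single-line members were counted in the direction of that line. Around members at 1 FPKM in DMS153 alone, 29 of 49 neighbours (59.2%) were higher in DMS153 than in MRC5, against 34.0% of all tested genes, and 12 (24.5%) higher than in H209, against 13.8%; with TPM scaling the 12 became 7. They included FOXA2, OXGR1, SFRP5 and WNT7B, the last 2 genes of the Wnt pathway, but also the microRNA loci MIRLET7A3 and MIRLET7B. Of the same 49 neighbours, 46.9% were higher in H209 than in MRC5, so the tilt against MRC5 was not particular to DMS153. Among the 290 neighbours of all members, 44.5% were higher in DMS153 and 38.3% higher in H209 than in MRC5. Between the carcinoma lines, 15.5% of the 290 were higher and 10.7% lower in DMS153. Around members of H209 alone, 17 of 35 (48.6%) were higher than in MRC5, against 33.0%, and 8 (22.9%) higher than in DMS153, against 13.4%. Scaling moved these counts, with the 17 becoming 11 with median ratio scaling and 8 with quantile normalization, and the 8 becoming 17 with TPM scaling. Around members of MRC5 alone, 8 of 24 (33.3%) were lower in DMS153 and 9 (37.5%) lower in H209, against 16.4% and 14.9%, among them DCBLD2, CDR1, IARS and GAS6, the gene of a ligand of TAM receptors. On the other hand, 10 of these 24 neighbours (41.7%) were higher in DMS153 than in MRC5.

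Chromatin domains came from 1 Hi-C library per line, so no test was possible. Of the 118 members, 60 lay inside a DMS153 domain, 66 inside an H209 domain and 67 inside an MRC5 domain (50.8%, 55.9% and 56.8%, against 51.1%, 50.7% and 49.6% of all tested genes). Members lay farther from the nearest domain end, at a median of 106, 116 and 119 kb, against 64.9, 79.3 and 82.3 kb. Member and neighbour were inside the same domain in 32.3%, 37.3% and 32.3% of pairs, against 26.1%, 27.9% and 26.6% of other pairs. For DMS153 against MRC5, pairs inside 1 DMS153 domain went the same way in 37 of 41 cases (90.2%) and the remaining pairs in 40 of 51 (78.4%). Pairs around other tested genes showed a like split, at 78.3% and 69.7%. With MRC5 domains the same comparison gave the opposite order for members, at 31 of 38 (81.6%) inside 1 domain and 46 of 54 (85.2%) for the rest. Pairs around other tested genes kept the first order there, at 76.0% and 70.4%. For H209 against MRC5 with H209 domains, the shares were 28 of 34 (82.4%) inside 1 domain and 43 of 47 (91.5%) for the rest. Pairs around other tested genes had the reverse order, at 79.5% and 74.8%.

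Well-known long noncoding RNAs without a LINC name were read for comparison. Of 41 listed, 36 were tested, and 15 were higher and 11 lower in DMS153 than in MRC5, 11 higher and 12 lower in H209 than in MRC5, and 12 higher and 2 lower in DMS153 than in H209. The shares of all tested genes called higher and lower were 34.0% and 16.4%, 33.0% and 14.9%, and 13.8% and 13.4%. The calls of higher in DMS153, against MRC5 and against H209, include the microRNA host entries MIR17HG, MIR22HG (1197, 1.033 and 37.0 FPKM in DMS153, H209 and MRC5) and MIR155HG (115.8, 0.06693 and 0.5813 FPKM). The imprinted RNA MEG3 averaged 54.53, 38.72 and 555.8 FPKM in DMS153, H209 and MRC5, and NEAT1, the RNA of paraspeckles, 185.6, 37.84 and 271.3 FPKM. The level of LINC00152 in MRC5, 101.1 FPKM, and that of LINC00657 in each line lay under that of MALAT1 (115.6, 194.2 and 140.5 FPKM), all per length.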

How the data were processed

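The authors deposited 1 table per RNA library with gene identifier, symbol, locus, FPKM, its confidence interval and a status, per the file headers; FPKM values were used as deposited by the authors. Bowtie2, TopHat2 2.1.0, Cufflinks 2.2.0, HOMER 4.8 and hg19 are named in the submitters' processing notes; the sources used here give neither RNA selection nor strand. Where RNA titles read DM153, the cell line field, DMS153, was followed. The deposited domain tables carry a score of unstated meaning, used only to rank domains in 1 alternative.

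Genes with at least 1 FPKM in at least 2 libraries (19066) were fitted with limma 3.58.1 under R 4.3.3 on the scale log2(FPKM + 1) (eBayes with trend, 1 mean per line, 2-sided, 5 residual degrees of freedom). A call needed p below 0.05 after Benjamini-Hochberg adjustment across the tested genes and a log2 fold change of 1 or more in size; SE is that of limma. The fit was tested on simulated data. Genes listed at 0 in a whole line got no plain ratio of means, and their fitted log2 fold changes depend on the added 1. Neighbours were tested genes whose locus lay within 100 kb. Members and all lists were chosen with earlier results of these data known. Members were named by a rule: the 6 highest and 6 lowest called per comparison with at least 5 FPKM and no overlap, the 10 highest, the 5 highest of each single line, the 5 most even, small-protein and microRNA host lists, and the 8 first pairs of each kind. LINC00441, LINC00617, LINC00669, LINC00674, LINC00960, LINC01035, LINC01081 and others outside it were named after their values were seen. Some members that met the rule are not described, among them LINC00240, LINC00271, LINC00900, LINC00963 and LINC01060. The same holds for some ranked pairs, among them LINC00654 with GPCPD1, LINC01057 with F3 and LINC00452 with TMEM255B. A planned search for genes of like pattern is not given, because the libraries fall into 3 separate clusters. Symbols came from the files, RefSeq names and sequences from GRCh38.p14 tables. Alternatives covered scaling, pseudocount, filters, window, overlap and each library left out.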

Additional observations from a re-analysis of the deposited data

Results flagged for a closer look

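Between the carcinoma lines, 22 members were higher and 13 lower in DMS153 than in H209 by limma (adjusted p below 0.05, log2 fold change of 1 or more in size), which is the test of the difference between their changes against the shared MRC5 libraries. These are 18.6% and 11.0% of members, against 13.8% and 13.4% of all tested genes. With TPM scaling the split turned to 20 higher and 29 lower, and the shares of all tested genes under that scaling were not computed. The 22 include LINC00261, LINC01021, LINC00886 and LINC00893, and the 13 include LINC00665, LINC00648 and LINC00960. No group held 4 or more libraries, so none was checked for single libraries that stand apart.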

How the results depend on the processing

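None of the 184 called comparisons of named genes changed sign under an alternative, but the balance of members did. With TPM scaling 20 members were higher and 29 lower in DMS153 than in H209, and with quantile normalization lower members outnumbered higher ones in both comparisons with MRC5. Members lower in DMS153 than in MRC5 numbered 14, and 23 with TPM scaling, 23 and 24 with pseudocounts of 0.01 and 0.1 and 28 with quantile normalization, where 27 were higher. Members higher in H209 than in MRC5 numbered 62 with a pseudocount of 0.01 and 23 with quantile normalization, and lower ones 26 and 25. Members lower in DMS153 than in H209 numbered 29 with TPM scaling and 23 and 21 with pseudocounts of 0.01 and 0.1. Members at 1 FPKM in exactly 1 line numbered 31 with a limit of 0.5 FPKM and 31 with 2 FPKM. The share of pairs called the same way between DMS153 and MRC5 was 74.3% with TPM scaling and 74.7% within 200 kb. Without the domains of lowest score, 25.4% of pairs lay inside 1 MRC5 domain. For the counts of called members, the shares of all tested genes under the same settings were not computed. The cause of these shifts was not tested. The counts of neighbours of single-line members were chosen after seeing the data. Around DMS153 members, 7 were higher than in H209 with TPM scaling. Around H209 members, 11 and 8 were higher than in MRC5 with median ratio scaling and quantile normalization, and 17 were higher than in DMS153 with TPM scaling. The median log2 fold change of all tested genes moved with scaling, from 0.44 to -0.03 in DMS153 against MRC5 with quantile normalization and from -0.04 to 0.06 between the carcinoma lines with median ratio scaling. It was 0.14 in DMS153 and 0.70 in H209 against MRC5 with TPM scaling, and 0.77 and 0.74 when small RNA and mitochondrial genes were left out of the scaled sum. Between the carcinoma lines it was -0.60 with TPM scaling and 0.01 with these genes left out of the sum.

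With each library left out in turn, members numbered 111 to 117, those in exactly 1 line 44 to 50, those higher 50 to 52, 41 to 42 and 22 to 23 in the order of the comparisons and those lower 14 to 16, 16 to 17 and 13. Same-way shares were 80.4% to 84.2%, 85.9% to 88.8% and 92.6% to 96.8%. Neighbour counts around DMS153 members were 28 to 30 and 10 to 13, around H209 members 17 and 7 to 10, and around MRC5 members 8 and 9. Correlations of deviations from the line means ran from -0.0118 to 0.123 for same-numbered libraries of different lines and from -0.123 to 0.0541 for the other pairs. Deviations within a line cancel out, so these values are not independent. They cannot decide whether replicate numbers pair the libraries. With a replicate block, 50 members were higher and 14 lower in DMS153 than in MRC5, 43 and 17 in H209 than in MRC5, and 22 and 13 in DMS153 than in H209. Of 184 called comparisons of named genes, 149 were called under every alternative and 35 lost the call under at least 1, 24 of them with quantile normalization. Of 140 not called, 68 were called under at least 1. The deposited intervals reached a median of 12.2% to 16.9% of the value for members at 1 to 10 FPKM and 5.09% to 6.96% for those at 10 FPKM or more.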
